A study of Mus musculus with 7 samples.

Results

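The aminoacyl-tRNA synthetase genes were taken by symbol: a capital letter followed by ars, with or without a final 1 or 2, together with Eprs, Farsa and Farsb. This gave 37 genes of the 55367 symbols in the tables, 20 of the cytosolic set and 17 of the mitochondrial set, whose symbols end in 2. Each stood on a single row in all 7 libraries. The libraries were made from polyadenylated RNA of G1E-ER4 cells, mouse erythroid progenitors without working GATA1 of their own, into which a GATA1 joined to the hormone-binding part of the estrogen receptor was introduced, so that estradiol switches maturation on. There was 1 library of undifferentiated cells at 0 h, without estradiol or chelator. At 24 h of 100 nM β-estradiol there were 3 control libraries and 3 libraries that also had 50 µM DTPA, a chelator that binds zinc strongly and also other metals, from the start of differentiation. All groups share the same line and the same lack of normal Gata1, and Gata1 reads can come from the introduced fusion. The labels call the replicates biological without saying that they were separate cultures, so the p-values measure the spread between these libraries.

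Aminoacyl-tRNA synthetases join each amino acid to its tRNAs, which makes them the enzymes that read the genetic code from the side of the amino acid. The cytosolic enzymes supply the ribosomes that make globin and all other nuclear-encoded proteins; a separate set, encoded in the nucleus and imported, supplies the mitochondrial ribosomes, which make a few subunits of the respiratory chain. Kars and Gars each encode both forms, and glutamine is charged in mitochondria by an indirect route through the product of Ears2 and an amidotransferase. Several cytosolic enzymes are held together with scaffold proteins in the multisynthetase complex. The rest are called free here, which means only that they are outside that complex. Alanyl-, cysteinyl- and threonyl-tRNA synthetase are known as zinc-binding enzymes. Many cytosolic synthetase genes are known targets of ATF4, the transcription factor of the response to amino acid shortage and other stresses.

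The values are TPM, reads per unit of gene length brought to one common sum, so that levels of different genes can be set side by side. The depth estimated from the low values was 17.6 M reads at 0 h, with a range of 17.7 to 18.6 M for controls and of 19.8 to 21.2 M for DTPA. The estimated reads behind a member in a library were 618 to 17054 for the cytosolic genes and 20 to 13217 for the mitochondrial genes. Of 9 erythroid markers, all well above 1 TPM, 3 were higher and 5 lower under DTPA, beside 21.7% and 36.4% of all tested genes. Their log2 fold changes ran from -3.38 to 2.12, so some markers differed greatly between the 24 h groups. In the same libraries, 8 of 14 markers of other blood lineages were at 0 in every library. Those at 0 included Mpo, Adgre1, Cd3e, Mcpt8 and Gp1bb, markers of myeloid, T, basophil and megakaryocyte cells. Other markers of the list were present. At 0 h, Cd68 (macrophage) had 7.13 TPM and Cpa3 (mast cell) 7.25 TPM. The megakaryocyte markers Pf4, Itga2b and Itgb3 had 5.87, 4.75 and 3.3 TPM there. Itgb3 had a mean of 2.18 TPM in the controls and 15.3 TPM under DTPA. The zeros therefore do not show that these lineages were absent. The summed level of the 14 was 28.3 TPM at 0 h, 5.42 to 5.96 in the controls and 17.7 to 19.96 under DTPA, where Itgb3 led it; its part in the results was not tested. As a check of zinc restriction, Mt1 and Mt2, the metallothioneins that zinc induces, were lower under DTPA and the zinc importer gene Slc39a10 was higher.

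Cytosolic synthetase transcripts were mostly lower when zinc was chelated. Of the 20 genes, 16 fell, 1 rose (Qars) and 3 did not pass (limma, adjusted p under 0.05), against a background of 36.4% of all tested genes lower, 21.7% higher and 58.1% called in either direction. Of all calls 37.3% were higher on this scale, and 47.9% or 50.6% after median-of-ratios scaling or quantile normalization. The median log2 fold change was -0.58, beside -0.09 over the 11147 tested genes. Of the 17 mitochondrial genes, 5 fell, 2 rose and 10 did not pass, with a median of -0.12. The DTPA libraries lay wholly below the controls in 17 cytosolic and 7 mitochondrial genes, and wholly above in 2 and 2; over all tested genes these shares were 40.3% and 24.7%, together 65%. In bulk RNA, fewer cells of a type and less RNA per cell cannot be told apart.

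**Figure D1:**
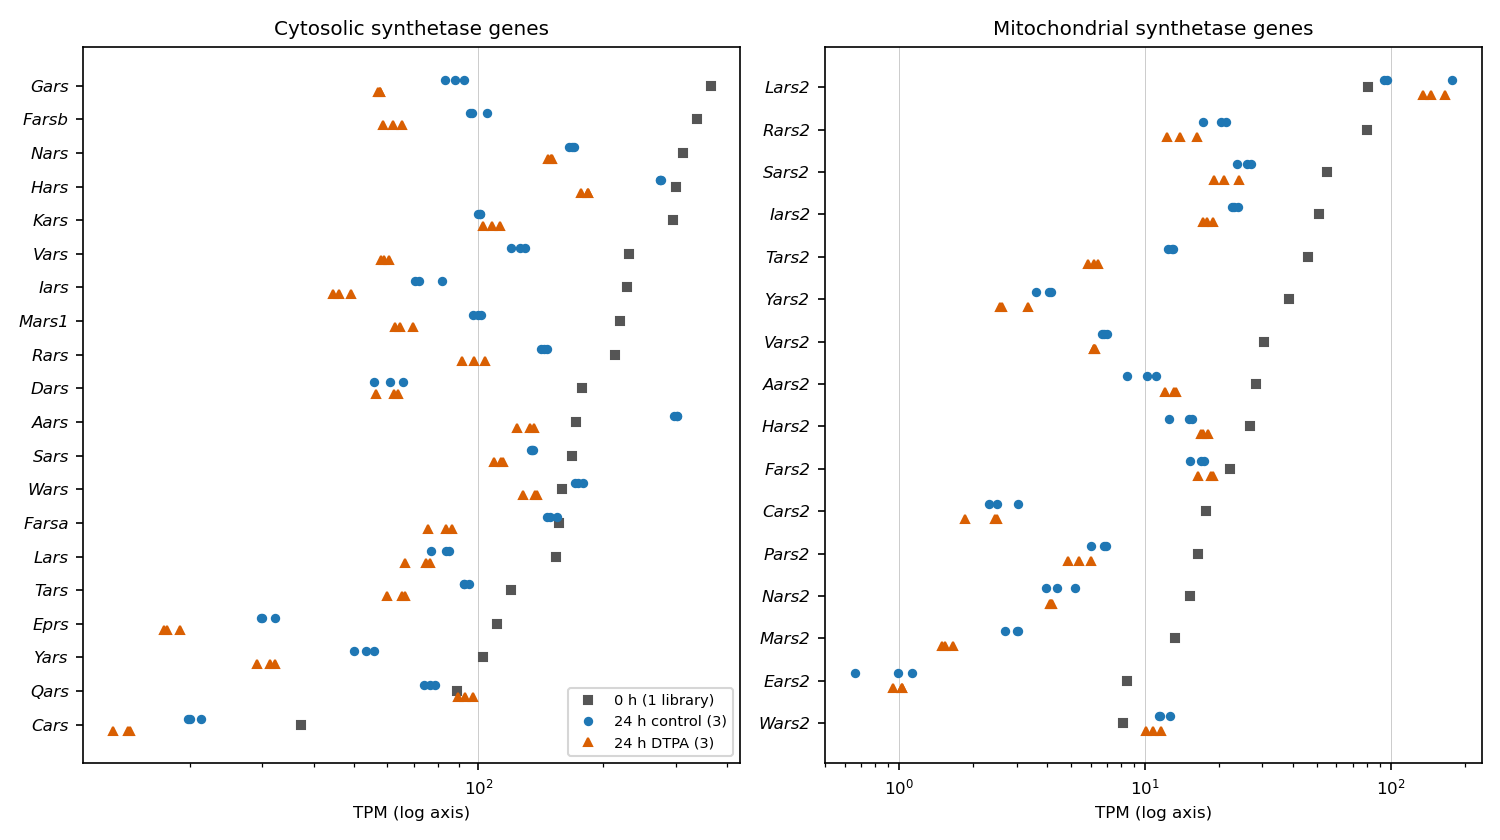
Level of each synthetase gene in each library (x axis: TPM on a log axis; 1 square for 0 h, 3 circles for the controls, 3 triangles for DTPA; genes ordered by the 0 h level). Most cytosolic genes step down from 0 h to control to DTPA, while Aars is highest in the controls and the Lars2 controls are spread from 93.9 to 177 TPM.

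Summed over the 20 cytosolic genes, the level was 3955 TPM at 0 h. It was 2333, 2344 and 2376 TPM in the controls and 1631, 1617 and 1674 TPM under DTPA. The DTPA libraries therefore kept 69.8% of the control level, and the 2 groups did not overlap. The 17 mitochondrial genes summed to 564 TPM at 0 h, to 268, 343 and 270.2 TPM in the controls and to 280.2, 295 and 325 TPM under DTPA, with the second control above all DTPA libraries. That control stands out through Lars2 alone. Without Lars2, the other 16 summed to 174, 166 and 174 TPM in the controls and to 145, 149 and 159 TPM under DTPA, where the groups no longer overlapped.

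**Figure D2:**
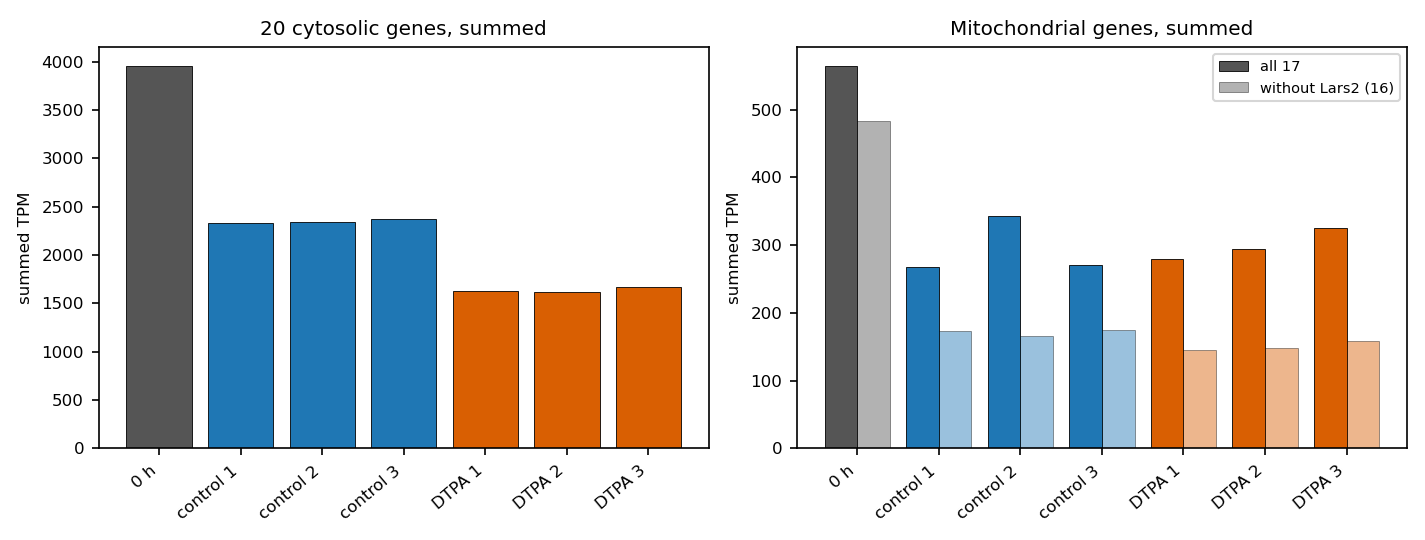
Summed level per library of the 20 cytosolic genes (left) and of the mitochondrial genes (right, dark bars all 17, pale bars the 16 without Lars2; y axis: TPM). The cytosolic sum falls from 3955 TPM at 0 h to 1617 to 1674 TPM under DTPA, and the tall second control bar at the right is absent from the pale bars.

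Aars, which encodes alanyl-tRNA synthetase, had the largest change among the synthetases under DTPA. Its level was 172 TPM at 0 h, 302, 297 and 303 TPM in the controls and 124, 133 and 136 TPM under DTPA. It was thus the most abundant synthetase transcript of the controls, and every DTPA library lay below the 0 h library. The mean went from 300.5 ± 3.11 TPM (SD, n = 3) to 131 ± 6.58 TPM, which is -1.19 ± 0.0448 (SE) as log2 fold change with an adjusted p of 7.29e-07 from limma. Aars lies on chromosome 8 from 111033144 to 111057664 on the plus strand (GRCm38, GENCODE M21). It shares 1326 bp of exon with Exosc6, an RNA exosome gene on the same strand, which is listed at 0 in all 7 libraries. How reads of the shared exon were counted is not given in the sources used here. Their part in the level of Aars was not tested.

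Vars, the gene of valyl-tRNA synthetase, showed the next largest fall. Its level was 232 TPM at 0 h, and 130, 126 and 120 TPM in the 3 controls became 59.02, 58 and 60.7 TPM with DTPA. Each group was tight and far from the others; the log2 fold change was -1.07 ± 0.0443 (adjusted p = 1.13e-06). On the deposited scale the other free enzymes also fell without exception. All 12 cytosolic genes outside the complex were thus lower, with a median of -0.60, beside 36.4% of all tested genes. Yars, for tyrosine, had 50.02, 53.5 and 55.8 TPM in the controls and 29.1, 32.2 and 31.2 TPM with DTPA (log2 fold change -0.77, adjusted p = 2.79e-05). Gars, for glycine, had 87.98, 83 and 92.5 TPM against 57.8, 57.3 and 57.9 TPM (-0.60, adjusted p = 3.4e-05). In both genes the groups were far apart.

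Hars, Tars, Cars and Wars, also free enzymes, fell by less than Yars. Hars, for histidine, had 277, 275 and 275 TPM against 185, 177 and 184 TPM with DTPA (-0.60, adjusted p = 6e-06). Tars, for threonine, had 92.4, 94.8 and 92.5 TPM against 66.4, 60.1 and 65.4 TPM (-0.54, adjusted p = 5.79e-05). Cars, for cysteine, was the least abundant cytosolic member, at 19.8, 20.1 and 21.3 TPM against 14.4, 14.2 and 13.1 TPM (-0.52, adjusted p = 2.48e-04). Wars, for tryptophan, had 179, 172 and 174 TPM against 128, 137 and 139 TPM (-0.38, adjusted p = 2.01e-04). No DTPA library of these genes reached a control library. Of the cytosolic genes for known zinc-binding enzymes, Cars and Tars thus lay inside the range of the other free enzymes and Aars beyond it. Whether zinc binding by the enzyme bears on the transcript level was not tested.

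The smallest falls among the free enzymes were those of Sars (serine) and Nars (asparagine). Sars went from 135 ± 0.842 to 112 ± 2.73 TPM (log2 fold change -0.26, adjusted p = 5.65e-04) and Nars from 168 ± 2.07 to 149 ± 1.76 TPM (-0.17, adjusted p = 0.0036). Both calls depended on the scaling. Under quantile normalization Sars had -0.09 (adjusted p = 0.055) and Nars -0.01 (adjusted p = 0.778), and with median-of-ratios scaling Nars had -0.07 (adjusted p = 0.122).

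Phenylalanyl-tRNA synthetase is built from 2 kinds of subunit in equal number, encoded by Farsa and Farsb. Farsa was 157 TPM at 0 h, 149, 155 and 147 TPM in the controls and 75.7, 86.2 and 83.4 TPM under DTPA, and the log2 fold change was -0.87 ± 0.0556 (adjusted p = 9.92e-06). Farsb was 338 TPM at 0 h, 96.7, 95.5 and 105 TPM in the controls and 65.5, 58.9 and 62.2 TPM under DTPA, with -0.66 ± 0.0566 (adjusted p = 4.33e-05). Farsa thus kept its 0 h level through control differentiation and Farsb did not. The ratio of Farsb to Farsa was 2.16 at 0 h, 0.617 to 0.714 in the controls and 0.683 to 0.865 under DTPA.

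The 8 synthetases of the multisynthetase complex were less uniform. There 4 fell (Eprs, Iars, Mars1 and Rars), 1 rose (Qars) and 3 did not pass (Dars, Kars and Lars), with a median of -0.37. Over all tested genes 36.4% were lower and 21.7% higher. The difference between complex and free genes under DTPA was not tested. Eprs, a fused enzyme for glutamate and proline, was 111 TPM at 0 h, 29.95, 29.7 and 32.2 TPM in the controls and 19.0, 17.3 and 17.6 TPM under DTPA, the lowest level of the complex in both 24 h groups. Its log2 fold change was -0.74 ± 0.0593 (adjusted p = 3.23e-05). Iars, for isoleucine, had 70.1, 71.8 and 81.5 TPM in the controls against 44.5, 45.9 and 49.1 TPM with DTPA (-0.67, adjusted p = 1.14e-04). Mars1, for methionine, had 99.8, 101 and 97.1 TPM against 62.8, 64.5 and 69.3 TPM (-0.60, adjusted p = 3.38e-05). Rars, for arginine, had 142, 144 and 146 TPM against 103, 91.5 and 97.4 TPM (-0.56, adjusted p = 5.89e-05). These 4 falls left no overlap between the groups, with Rars kept at the highest level.

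Qars was the only cytosolic synthetase gene that rose on the deposited scale. It encodes glutaminyl-tRNA synthetase, and its level was 88.7 TPM at 0 h, 73.8, 76.2 and 78.5 TPM in the controls and 89.3, 92.8 and 97.0 TPM under DTPA. The DTPA libraries lay above all controls and near the 0 h library. This is a log2 fold change of 0.29 ± 0.0468, with an adjusted p of 0.0013. With median-of-ratios scaling, quantile normalization or globin genes left out, 2 cytosolic genes rose. The second was Kars (lysine), with 0.10 ± 0.0449 on the deposited scale (adjusted p = 0.104) and 0.19, 0.26 and 0.13 under those scalings (adjusted p = 0.0052, 9.77e-04 and 0.0418). It was also called without the first DTPA library (0.13, adjusted p = 0.0249).

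Kars was 296 TPM at 0 h, 101, 101 and 99.8 TPM in the controls and 102, 108 and 113 TPM under DTPA, a narrow gap with no overlap. Dars (aspartate) overlapped fully, at 56.02, 60.98 and 65.7 TPM in the controls and 63.97, 56.7 and 62.6 TPM under DTPA. Its log2 fold change was 0.01, with a 95% interval from -0.16 to 0.17. Lars (leucine) had 76.9, 83.5 and 85.1 TPM in the controls and 76.5, 66.5 and 74.9 TPM under DTPA, so that the groups were separated by less than the spread inside either. Its log2 fold change was -0.17 (interval -0.33 to -0.02, adjusted p = 0.0585). It was called at -0.21 without the first control (adjusted p = 0.0405) or without the first DTPA library (adjusted p = 0.0412), and at -0.17 with a filter of 5 TPM (adjusted p = 0.0469).

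**Figure D3:**
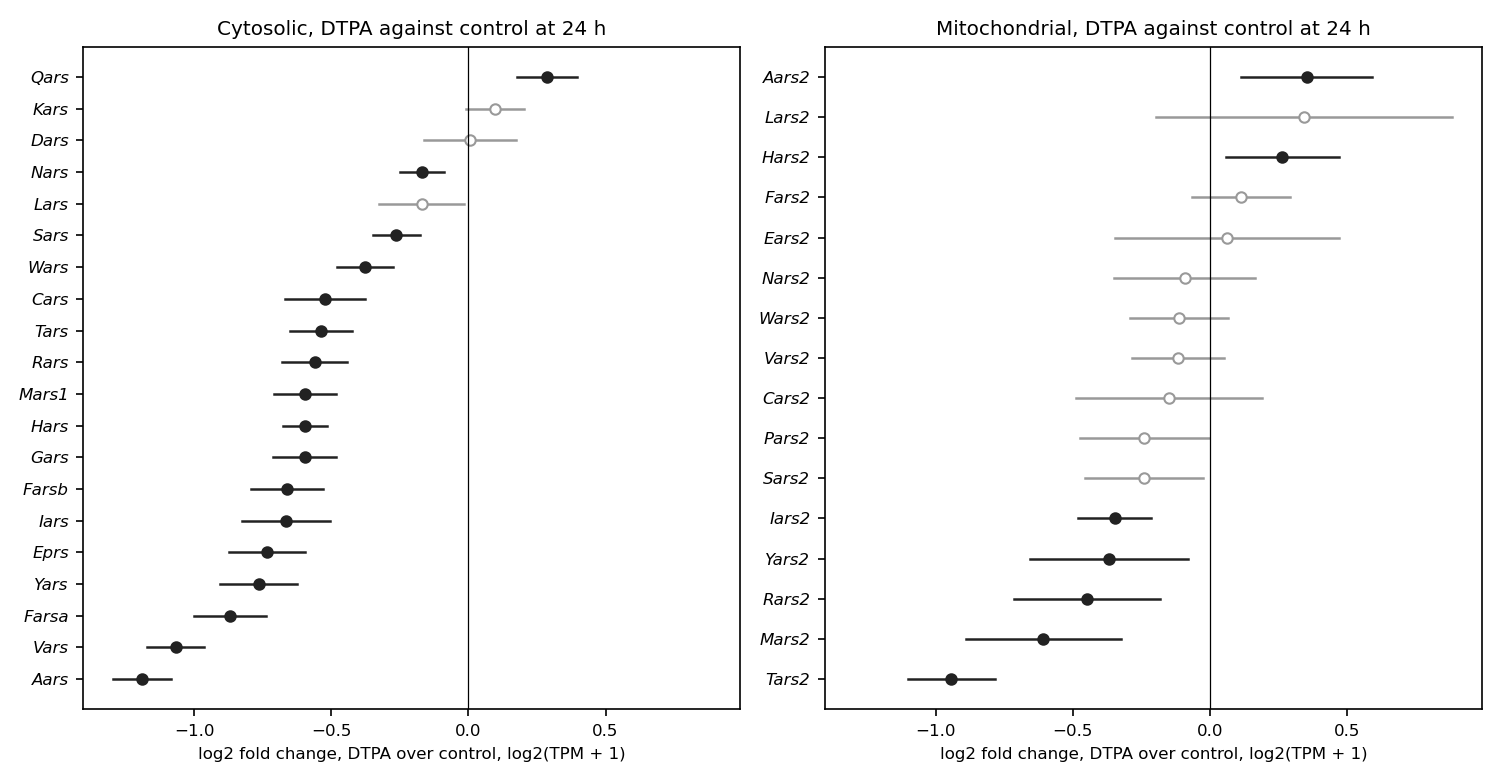
Log2 fold change of each synthetase gene, DTPA over control at 24 h (x axis: difference of mean log2(TPM + 1); lines are 95% intervals from limma; filled points passed at adjusted p under 0.05, open points did not). In the cytosolic panel 16 filled points lie left of 0 and Qars is the only filled point right of it. The open points of Kars and Dars also lie right of 0. Of the 16 mitochondrial points shown, 9 are open.

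Tars2, the mitochondrial threonyl-tRNA synthetase gene, fell most among the mitochondrial genes. It was 45.8 TPM at 0 h, 12.84, 12.4 and 13 TPM in the controls and 6.19, 5.87 and 6.41 TPM under DTPA. The control and DTPA libraries were far apart; the log2 fold change was -0.94 ± 0.0682 (adjusted p = 1.81e-05). Mars2 (methionine) went from 2.91 ± 0.186 to 1.57 ± 0.0833 TPM, Rars2 (arginine) from 19.6 ± 2.13 to 14.1 ± 1.97 TPM and Iars2 (isoleucine) from 23.1 ± 0.648 to 17.98 ± 0.854 TPM. As log2 fold changes these were -0.61, -0.45 and -0.35 (adjusted p = 0.00346, 0.0111 and 0.00132). Iars2 shares 2034 bp of exon with Rab3gap2 on the other strand, whose level was 50.96 to 55.5 TPM in the controls and 23.5 to 24.4 TPM under DTPA. The sources used here do not say whether strand was used in the counting.

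The fifth lower gene was Yars2 (tyrosine), at 4.13, 4.08 and 3.59 TPM in the controls and 3.33, 2.56 and 2.61 TPM under DTPA. Its call (log2 fold change -0.37, adjusted p = 0.0343) was lost without a filter on low values (0.0825), under median-of-ratios scaling (0.082) and quantile normalization (0.0547). It was also lost without control library 1 (adjusted p = 0.0999) or 2 (0.0918) and without DTPA library 2 (0.107) or 3 (0.101).

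Aars2 and Hars2, for alanine and histidine, were the mitochondrial genes that rose, and their cytosolic counterparts fell in the same libraries. Aars2 was 11.1, 10.2 and 8.44 TPM in the controls and 12.04, 13.1 and 13.4 TPM under DTPA (log2 fold change 0.35 ± 0.102, adjusted p = 0.0192). Hars2 was 15.1, 12.5 and 15.5 TPM in the controls and 17.2, 16.9 and 18.1 TPM under DTPA (0.26 ± 0.0877, adjusted p = 0.0341). Both groups of libraries were apart in both genes, by a small margin. The calls were weak: neither gene passed without a filter on low values (adjusted p = 0.0507 for Aars2 and 0.074 for Hars2), and neither passed without DTPA library 2 (0.0546 and 0.0584) or 3 (0.0616 and 0.0992). Hars2 also failed without control library 2 (0.0693) or DTPA library 1 (0.0672).

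Hars and Hars2 start on opposite strands of chromosome 18 and share 195 bp of exon, so that reads there cannot be assigned without strand. Hars, far the more abundant, fell from 275 ± 1.16 to 182 ± 4.06 TPM under DTPA (adjusted p = 6e-06). The ratio of Hars2 to Hars was 0.0888 at 0 h, 0.0454 to 0.0565 in the controls and 0.0932 to 0.0982 under DTPA.

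Lars2, mitochondrial leucyl-tRNA synthetase, was the most abundant mitochondrial member and varied most between replicates. It had 80.4 TPM at 0 h, then 93.9, 177 and 95.95 TPM in the controls and 136, 146 and 166 TPM with DTPA. The second control lay above every DTPA library and the other controls lay below. The log2 fold change was 0.34 ± 0.231 (adjusted p = 0.239), and without control replicate 2 it was 0.64 (adjusted p = 0.00105). CT010467.1, a row annotated as ribosomal RNA and picked after its values were seen, had a like pattern within the groups: 2578 TPM at 0 h, 2587, 4090 and 2076 TPM in the controls and 2936, 3045 and 3398 TPM under DTPA. Lars2 amounted to 3.12 TPM per 100 TPM of that row at 0 h, to 3.63, 4.34 and 4.62 in the controls and to 4.62, 4.8 and 4.88 under DTPA. The part of ribosomal RNA reads in the value of Lars2 was not tested. Lars2 lies on chromosome 9 from 123366927 to 123462666.

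**Figure D4:**
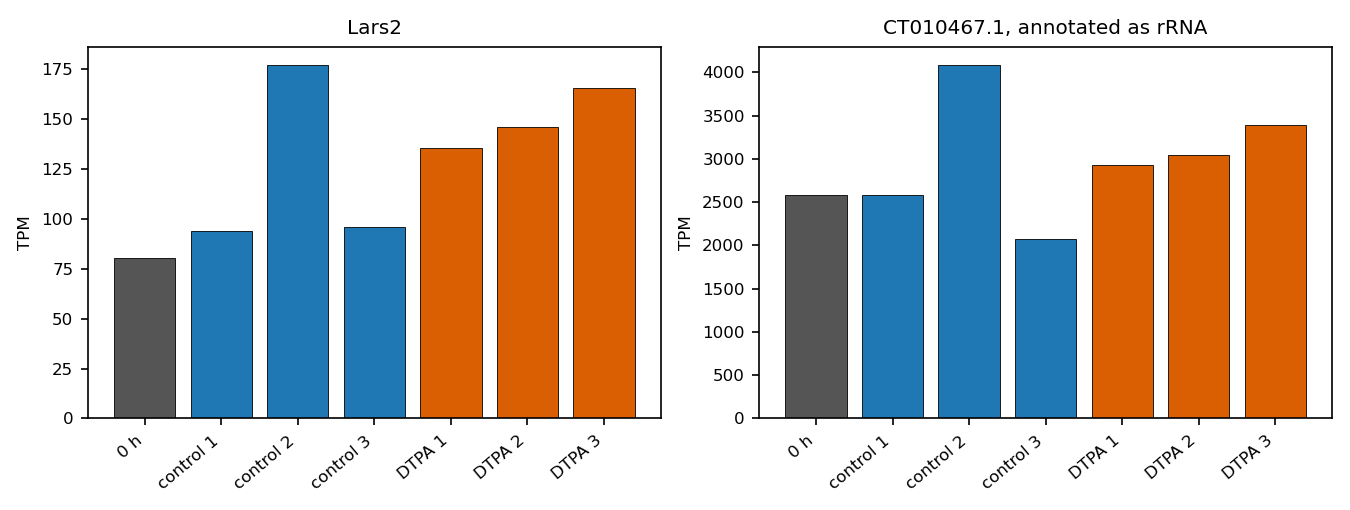
Level of Lars2 (left) and of CT010467.1, annotated as ribosomal RNA (right), in each library (y axes: TPM from 0). The second control is the highest library in both panels, at 177 and 4090 TPM.

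The other mitochondrial genes that did not pass included Cars2, Ears2, Fars2, Nars2, Pars2, Sars2, Vars2 and Wars2. Their log2 fold changes lay between -0.24 and 0.11. The lowest of them, Ears2 (glutamate), had 0.66 to 1.13 TPM at 24 h, from 20 to 38 estimated reads, and its interval reached from -0.35 to 0.47. For Sars2 (serine) the interval was -0.46 to -0.03 (adjusted p = 0.0543).

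From 0 h to the 24 h controls, most mitochondrial and some cytosolic synthetase transcripts fell, as far as a single 0 h library can show. A gene was called here when the adjusted p was under 0.05 and the log2 fold change at least 1 in size. By that rule 13 of 17 mitochondrial and 7 of 20 cytosolic genes fell from 0 h to 24 h and none rose, against a background of 24.3% of 11906 tested genes lower, 15.1% higher and 39.4% in either direction. The mitochondrial count was 10 with a pseudocount of 5 or quantile normalization and 11 with median-of-ratios scaling, where log2 fold changes of Iars2, Pars2 or Sars2 came under the minimum fold; the cytosolic count was 6 with median-of-ratios scaling, without Mars1. With no minimum fold, 17 cytosolic genes were lower and 1 higher, and 15 mitochondrial genes were lower and 1 higher, against 43.6% and 30.9% of all tested genes, together 74.4%. The medians were -1.44 for the mitochondrial and -0.89 for the cytosolic genes, beside -0.22 over all tested genes. The difference between the 2 sets was not tested, and the 0 h library was assumed to vary like the others.

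**Figure D5:**
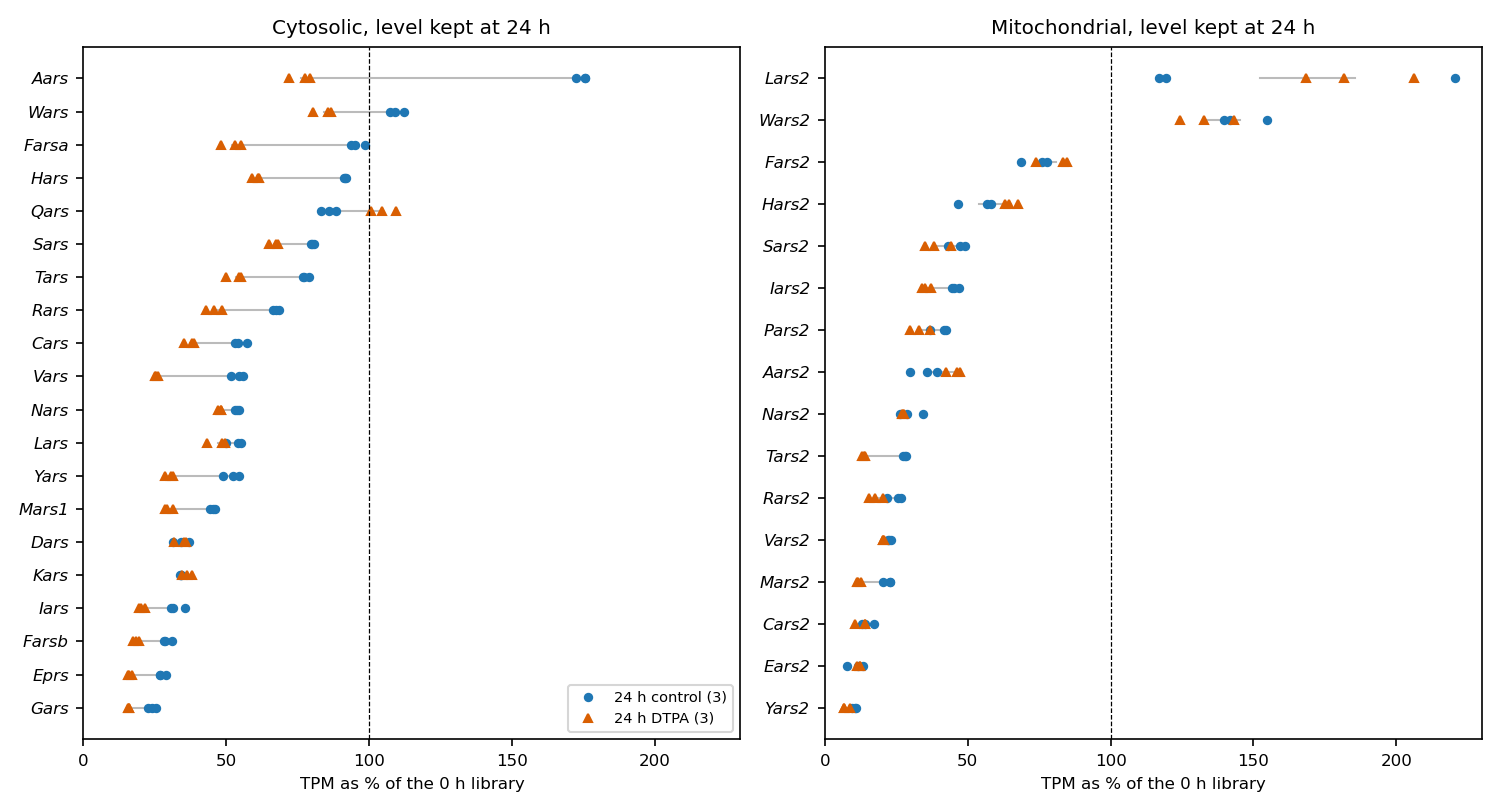
Level of each gene at 24 h as a percentage of its level in the 0 h library (circles: 3 controls; triangles: 3 DTPA libraries; grey line between the group means; dashed line at 100%). Aars, Wars, Lars2 and Wars2 lie right of the line in all controls, and Yars2, Ears2 and Cars2 lie farthest left.

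By log2 fold change, the largest falls among the mitochondrial genes in the controls were those of Yars2, Cars2, Ears2, Vars2 and Rars2. This scale makes the changes of low genes too small, and the order by share of 0 h TPM was different. By that share Ears2 kept 10.98%, Cars2 14.8%, Mars2 21.95%, Vars2 22.5% and Rars2 24.6%. Yars2 went from 38.4 TPM at 0 h to a control mean of 3.93 ± 0.298 TPM, which is 10.2% of the 0 h level. The 95% interval of its log2 fold change was -3.37 to -2.63 (adjusted p = 1.14e-05). Cars2 (cysteine) went from 17.7 to 2.63 ± 0.379 TPM and Ears2 from 8.44 to 0.927 ± 0.241 TPM; on the log2 scale these were -2.37 and -2.30 (adjusted p = 5.65e-05 and 4.14e-05). Vars2 (valine) went from 30.4 to 6.82 ± 0.15 TPM (-2.00) and Rars2 from 79.8 to 19.6 ± 2.13 TPM (-1.97). Cars2 shares 422 bp of exon with Naxd on the other strand, which stood at 27.6 TPM at 0 h and at 17.06 to 18 TPM in the controls.

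The mitochondrial exceptions were Fars2, Hars2, Lars2 and Wars2. Wars2 (tryptophan) was higher in the controls than at 0 h, at 11.4, 11.5 and 12.6 against 8.14 TPM, a log2 fold change of 0.49 under the minimum fold (adjusted p = 0.00641). Fars2 (phenylalanine) kept 74.2% and Hars2 53.8% of the 0 h level.

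Among the cytosolic genes, Gars, Eprs, Farsb, Iars, Kars, Dars and Mars1 fell. Gars was the most abundant synthetase transcript at 0 h, at 365 TPM, and stood at 88.0, 83.0 and 92.5 TPM in the controls, which is 24.1% of the 0 h level on average. The fit gave -2.04 ± 0.0614 (adjusted p = 2.08e-06). The 2 genes that also encode the mitochondrial enzyme, Gars and Kars, were thus among the cytosolic genes that fell, Kars with a log2 fold change of -1.55. Eprs and Farsb had -1.83 and -1.76, and Iars went from 229 TPM to 32.6% of that level. In the complex 5 of 8 genes fell, with a median of -1.34, and among the free enzymes 2 of 12, with a median of -0.60, beside 24.3% of all tested genes. With no minimum fold these counts were 8 of 8 and 9 of 12, beside 43.6%, and the difference between complex and free genes was not tested. Complex genes together kept 44.8% of their 0 h TPM in the controls and free genes 68.3%, or 60.3% with Aars left out.

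Aars went the other way. Its log2 fold change from 0 h to the controls was 0.80 ± 0.058 (adjusted p = 5.31e-05), under the minimum fold, and all 3 controls lay above the 0 h library. It was the only cytosolic gene called higher than at 0 h when no minimum fold was asked. Wars (160 TPM at 0 h, 172 to 179 TPM in the controls, adjusted p = 0.0704), Farsa (adjusted p = 0.485) and Hars (300.5 TPM at 0 h and 275 to 277 TPM in the controls, adjusted p = 0.0207) stayed within 10% of the 0 h level on average.

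Against 0 h, DTPA libraries showed more cytosolic falls. By the same rule 13 of 20 cytosolic and 13 of 17 mitochondrial genes were lower and none higher, against a background of 27.6% lower, 15.7% higher and 43.3% in either direction of 12016 tested genes. The cytosolic count was 10 with median-of-ratios scaling or quantile normalization and 11 without globin genes, where Lars and Nars, and under both scalings Rars, came under the minimum fold. The mitochondrial count was 12 under both scalings and with a pseudocount of 5, without Aars2. With no minimum fold, 19 cytosolic genes were lower and 0 higher, and 15 mitochondrial genes were lower and 1 higher (Wars2), against 46.6%, 29.9% and together 76.5%. Lars2, with 0.88 on the log2 scale (adjusted p = 0.0706), was called higher after median-of-ratios scaling (1.14, adjusted p = 0.0334) and quantile normalization (1.08, adjusted p = 0.0379). The medians were -1.24 and -1.56, beside -0.30. This comparison shares the 0 h library with the control comparison and the DTPA libraries with the zinc comparison, so it adds no independent count. Gars, Eprs and Farsb stood at 15.8%, 16.2% and 18.4% of the 0 h level under DTPA, against 24.1%, 27.5% and 29.3% in the controls. Qars stood at 105% under DTPA and 85.9% in the controls, and Aars at 76.2% and 175%. The largest log2 fold changes in the cytosolic set were -2.64 for Gars, -2.56 for Eprs, -2.42 for Farsb, -2.28 for Iars and -1.95 for Vars (adjusted p at most 5.39e-06). In the mitochondrial set they were -3.37 for Yars2, -2.71 for Tars2, -2.52 for Cars2, -2.48 for Mars2 and -2.42 for Rars2 (adjusted p at most 4.13e-05). Yars2 thus stood at 7.37% and Mars2 at 11.8% of the 0 h level. Ears2, a low gene with a log2 fold change of -2.24, also stood at 11.8%.

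Set side by side for the same amino acid, the mitochondrial transcript was below the cytosolic one in every library for each amino acid reported here but leucine. The ratio of Aars2 to Aars was 0.165 at 0 h, 0.033 ± 0.0045 in the controls and 0.0979 ± 0.0006 under DTPA. Ratios of Tars2 to Tars went from 0.382 at 0 h to 0.137 ± 0.0049 in the controls and 0.0963 ± 0.0027 under DTPA, and those of Vars2 to Vars from 0.131 to 0.0544 ± 0.0011 and 0.105 ± 0.0022. The ratio was therefore lowest in the controls for alanine and valine and lowest under DTPA for threonine. These ratios carry the exon lengths of both genes, which include all annotated isoforms.

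Promoter sequence was looked at because ATF4 binds a composite element, the C/EBP-ATF response element, in several synthetase genes. RefSeq windows on GRCm38.p6, from 250 bases before to 50 after the start, matched 27 of the 37 genes by symbol, 13 cytosolic and 14 mitochondrial. The unmatched genes included Cars, Hars, Hars2, Lars, Nars, Pars2, Rars, Vars and Wars. The letters TGATGNAA, on either strand, were in 5 of 13 cytosolic and 0 of 14 mitochondrial windows, and in 4.06% of 27025 promoter windows of the same length. The 5 genes were Aars, Gars, Iars, Tars and Yars. They are shown from 130 bases before to 30 after the start, with the matches, on either strand, in capitals, followed by Qars, the cytosolic gene that rose, which has no match. In the order shown, the windows lie at chr8:111033712-111033871 (plus strand), chr6:55037871-55038030 (plus strand), chr13:49682000-49682159 (plus strand), chr15:11399629-11399788 (minus strand), chr4:129189773-129189932 (plus strand) and chr9:108507875-108508034 (plus strand).
Aars: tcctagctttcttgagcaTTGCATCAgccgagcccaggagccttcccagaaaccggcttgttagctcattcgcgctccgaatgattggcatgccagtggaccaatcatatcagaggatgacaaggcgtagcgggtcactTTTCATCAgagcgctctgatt
Gars: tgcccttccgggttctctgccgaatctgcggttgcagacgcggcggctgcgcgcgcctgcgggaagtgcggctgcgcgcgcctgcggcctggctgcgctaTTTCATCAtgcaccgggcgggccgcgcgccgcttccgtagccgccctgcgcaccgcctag
Iars: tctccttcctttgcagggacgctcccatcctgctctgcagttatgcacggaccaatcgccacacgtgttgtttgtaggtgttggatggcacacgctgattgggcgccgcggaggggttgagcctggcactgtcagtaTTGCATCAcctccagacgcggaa
Tars: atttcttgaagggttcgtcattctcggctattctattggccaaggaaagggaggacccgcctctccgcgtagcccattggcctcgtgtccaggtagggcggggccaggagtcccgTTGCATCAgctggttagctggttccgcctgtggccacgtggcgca
Yars: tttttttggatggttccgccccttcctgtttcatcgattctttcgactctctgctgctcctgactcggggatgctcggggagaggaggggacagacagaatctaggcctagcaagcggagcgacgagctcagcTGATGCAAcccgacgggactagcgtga
Qars: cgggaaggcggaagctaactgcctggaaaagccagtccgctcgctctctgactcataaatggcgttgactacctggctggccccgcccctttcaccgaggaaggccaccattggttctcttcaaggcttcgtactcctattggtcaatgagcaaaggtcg

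All 5 genes with these letters fell under DTPA, with log2 fold changes from -1.19 to -0.54 and a median of -0.67. Of the 8 other cytosolic genes with a window, 5 fell and 1 rose, with a median of -0.43. These counts stand beside 16 of all 20 cytosolic genes lower and 36.4% of all tested genes lower. The difference between genes with and without the letters was not tested. Cytosolic genes without a window, such as Vars (-1.07), are in neither group. In differentiation the 5 genes with the letters went apart, from -2.04 for Gars to 0.80 for Aars. Aars has a pair of matches, 1 of them starting 112 bases upstream of the start. The E-box letters CACGTG, which MYC can bind, were in 4 of 13 cytosolic windows (Aars, Farsb, Iars and Tars), in 1 of 14 mitochondrial windows (Ears2) and in 7.24% of all windows. The binding motif of GATA factors, searched as the letters AGATAA on either strand, was in 1 cytosolic window (Farsb), in 2 mitochondrial windows (Aars2 and Sars2) and in 11.4% of all windows. A match is a description of the letters only.

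Genes around the synthetases gave a mixed picture under DTPA. All 3 scaffold genes of the multisynthetase complex fell, beside 36.4% of all tested genes. Other scalings were not examined for the genes around the synthetases. Eef1e1 went from 9.95 ± 1.59 to 5.63 ± 0.96 TPM (adjusted p = 0.00327), after 80.4 TPM at 0 h, while Aimp1 and Aimp2 fell by 0.21 and 0.17 on the log2 scale (adjusted p = 0.0398 and 0.0153). Of the 4 genes that complete mitochondrial charging, Gatb and Gatc, subunits of the amidotransferase, fell by 0.50 and 0.38, again beside 36.4%. The other subunit gene, Qrsl1, had -0.46 (adjusted p = 0.0558), and Mtfmt, which formylates the initiator tRNA, had 0.22 (adjusted p = 0.0724). Of 5 tested relatives and proofreading genes 2 fell, a share near the 36.4% of all tested genes: Dtd1, which removes D-amino acids from tRNA, from 13.6 ± 0.373 to 8.2 ± 0.684 TPM, and Lrrc47 from 67.2 ± 0.457 to 51.3 ± 1.88 TPM.

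Of 18 tested genes of tRNA maturation and export, 9 fell, 1 rose and 8 did not pass, with a median of -0.20. The tRNA 3′ processing gene Elac1 went from 5.39 ± 0.25 to 2.11 ± 0.36 TPM, and the RNase P subunit genes Rpp30 and Pop4 from 13.6 ± 2.04 to 7.31 ± 0.383 TPM and from 231 ± 4.44 to 149 ± 10.5 TPM. Tsen34, a subunit of the tRNA splicing endonuclease, rose from 40.3 ± 2.55 to 53.4 ± 5.17 TPM. The single rise and the 9 falls stand beside 21.7% and 36.4% over all tested genes. From 0 h to the controls, by the rule with a minimum fold, 8 of the 18 fell and 1 rose, beside 24.3% and 15.1%.

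Of 11 tested genes of the ATF4 axis, 8 fell and none rose, with a median of -0.32, beside 36.4% lower and 21.7% higher over all tested genes. From 0 h to the controls 4 of the 11 fell and 4 rose, beside 24.3% and 15.1%. Asns, asparagine synthetase, went from 418 ± 9.63 to 229.8 ± 3.08 TPM (log2 fold change -0.86, adjusted p = 1.08e-06) and the serine and one-carbon genes Shmt2, Mthfd2 and Psat1 fell by 1.44, 0.92 and 0.72. The transcript of Atf4 itself was 89.6 ± 3.95 TPM in the controls and 87.8 ± 2.41 TPM under DTPA (adjusted p = 0.62), and Ddit3, a partner of ATF4 in stressed cells, 341 ± 9.04 and 358 ± 6.16 TPM (adjusted p = 0.125). Ddit3 shares 68 bp of exon with Mars1 on the other strand. Among the regulators listed, Myc rose from 14.9 ± 0.164 to 30.6 ± 1.43 TPM under DTPA, after 474 TPM at 0 h. The eIF2α kinase genes Eif2ak1, which senses heme, and Eif2ak4, which senses uncharged tRNA, fell by 0.20 and 0.44, and Gcn1, the partner of the latter, had -0.07 (adjusted p = 0.513).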

How the data were processed

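Trimmomatic 0.33, FastQC, HISAT2 2.1.0, featureCounts and edgeR, with the build mm10, are named in the submitters' processing notes; libraries were stranded mRNA libraries per the labels' protocols. The deposited values are TPM, made by the authors, in 55487 rows per library; rows with the same symbol were summed. Annotation release, strand setting, handling of shared reads and gene lengths are not given in the sources used here. Depth was estimated from low TPM multiplied by GENCODE M21 exon length, where 98.8% to 99.5% of the values used came within 0.1 of whole reads. Mars1 is named Mars in that release.

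Levels were transformed to log2(TPM + 1) and tested two-sided in R 4.3.3 (limma 3.58.1, eBayes with trend), with Benjamini-Hochberg adjustment over all tested genes. Log2 fold changes use this transform and are too small for low genes. DTPA against control used the 6 libraries of 24 h and kept a gene if 3 or more of them reached 1 TPM; comparisons with 0 h used all 7 libraries and kept a gene if either group mean reached 1 TPM. The fits were tested on simulated data. Values and full statistics were given for cytosolic and changed mitochondrial members, and others by range; 1 member and 1 marker, counted in the totals, are not reported individually here or plotted by gene. The members, gene lists, motifs and tests were chosen with earlier results of these data known. Alternatives were other pseudocounts, filters, scalings and variance models, a replicate block and leaving out each replicate.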

Additional observations from a re-analysis of the deposited data

How the results depend on the processing

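Quantile normalization shifted the log2 median over all tested genes from -0.09 to 0.01 for DTPA against control, from -0.22 to -0.01 for control against 0 h and from -0.30 to -0.02 for DTPA against 0 h, and higher genes as a share of calls from 37.3% to 50.6%, from 38.3% to 50.1% and from 36.3% to 49.8%. For DTPA against control, cytosolic genes called higher were 1, and 2 with median-of-ratios scaling, quantile normalization or globin genes left out. Mitochondrial genes called higher were 2, 3 with median-of-ratios scaling or quantile normalization, and 0 without a filter on low values. Leaving out each 24 h library in turn gave 1 to 2 cytosolic genes higher, 16 to 17 lower, and 0 to 2 mitochondrial genes higher, 4 to 6 lower. Against 0 h, with no minimum fold, control cytosolic genes were 17 lower and 1 higher (7 and 0 with it) and mitochondrial genes 1 higher (0 with it). For DTPA against 0 h, 1 mitochondrial gene was higher with median-of-ratios scaling, quantile normalization (Lars2) or no minimum fold (Wars2), where none was before. Leaving out replicates moved no count against 0 h. The log2 fold change of Dars (0.01) changed sign without control replicate 1 (-0.053), DTPA replicate 1 (-0.029) or DTPA replicate 3 (-0.013), ranged from -0.053 to 0.061 over the libraries left out, and was called in none of them. Apart from scaling, and from the smaller numbers of genes or samples that some settings leave, the causes were not tested.

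Deviations of same-numbered control and DTPA libraries from their group means correlated at -0.01, 0.02 and -0.01 across genes. Not every library correlated best with its own number, so no shared effect of the number was seen. This cannot show whether same-numbered libraries were handled together. With the replicate number as a block, 16 cytosolic genes were lower and 1 higher, 5 mitochondrial genes were lower and 2 higher, and 2274 and 3888 of all genes were higher and lower, against 2415 and 4059 without it. No paired analysis was possible for the comparisons with 0 h because that group has 1 library.

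Depth limits the low mitochondrial genes: Ears2 rested on 20 to 38 estimated reads per library at 24 h. The single 0 h library has no replicate check, so its differences rest on the spread of the 24 h groups. TPM shifts with the globin share of each library.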
